A study of Homo sapiens with 4 samples.

Results

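The genes examined here encode the D-type cyclins (CCND1, CCND2 and CCND3), the kinases that these cyclins activate (CDK4 and CDK6) and the INK4 proteins that inhibit those kinases (CDKN2A, CDKN2B, CDKN2C and CDKN2D). They were chosen by symbol, and all 9 were found among the 60671 genes of the count table. RNA was sequenced from SK-N-BE(2), a long-established neuroblastoma cell line of human origin in which MYCN is amplified. The cells expressed a control hairpin RNA (shNC) or one directed at METTL14 (shMETTL14), with 2 libraries in each group, and received no other treatment that the labels name. METTL14 is a subunit of the complex that places N6-methyladenosine on RNA. In the methods, hairpins are delivered by lentivirus and stable lines selected with puromycin. The labels do not say which METTL14 hairpin the sequenced cells carried, whether each group was 1 line, or whether replicates were separate cultures, so p-values measure only the spread between these libraries.

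D-type cyclins are made when growth signals reach a cell in G1 phase. Bound to CDK4 or CDK6, they phosphorylate the retinoblastoma protein RB1 and its relatives, which releases E2F transcription factors and lets the cell enter S phase. INK4 proteins bind CDK4 and CDK6 and keep cyclin D away, whereas CIP/KIP proteins bind the assembled complexes. In neuroblastoma, CCND1 and CDK4 are known as abundantly expressed genes, and MYCN is known to drive cell cycle genes. After METTL14 knockdown, the study reported a longer G0-G1 phase and marked decreases of cyclins D1 and E1, for which its methods list western blots. For that reason the RNA of the whole cyclin D module was compared between the groups. Only RNA, not protein, is measured here.

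Depth was even, at 18925786 to 19886214 reads counted in genes per library. METTL14 itself had 753 and 754 counts in the shNC libraries and 303 and 321 in the shMETTL14 libraries, so the labels and the targeted gene went together. All 14 noradrenergic neuroblastoma markers passed the filter on low counts, 4 higher and 8 lower in shMETTL14 at an edgeR adjusted p under 0.05. The share called was 85.7%, against 52.5% of all tested genes. These markers had a summed level of 7680 to 7850 CPM (gene counts divided by the TMM-scaled library total, in the usual CPM unit) in shNC and 7940 to 7970 CPM in shMETTL14. MYCN carried that higher sum: the other 13 markers summed to 5090 to 5210 CPM in shNC and 4780 to 4790 CPM in shMETTL14, and the median log2 fold change of all 14 was -0.15. Epithelial markers summed to 6.42 to 7.42 CPM in shNC and 4.1 to 4.75 CPM in shMETTL14. EPCAM led them, with 93 and 90 counts in shNC and 62 and 48 in shMETTL14, and was called lower (-0.72, edgeR adjusted p 0.0058). An alternative test, DESeq2, called no epithelial marker. KRT19 was not called, and KRT5 was at 0 in all libraries. Blood markers summed to 2.06 to 2.56 CPM in shNC and 1.82 to 2.15 CPM in shMETTL14. The 6 fibroblast markers (1 higher, 3 lower, 66.7% called) summed to 438 to 440 CPM in shNC and 413 to 422 CPM in shMETTL14. They were led by LUM, which encodes the matrix proteoglycan lumican. COL1A2, the marker called higher, had only 2 and 6 counts in shNC and 11 and 18 in shMETTL14. DESeq2 called no fibroblast marker higher. The part of these marker shifts in the results on the cyclin D module was not tested. In such bulk RNA, fewer cells with a transcript and less of it per cell cannot be told apart.

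Of the 9 genes, 7 passed the filter on low counts and 4 changed at an edgeR adjusted p under 0.05. CCND3, CDK4 and CDKN2D rose and CDK6 fell, while CCND1, CDKN2A and CDKN2C were not called. The test called 52.5% of all 16309 genes it covered, with 27.2% higher and 25.3% lower after knockdown, so the count of 4 of 7 was close to the background. The groups did not overlap in 6 of the 7 genes, against 75.5% of all tested genes. The median log2 fold change was 0.30 over the 7 tested genes and -0.0010 over all tested genes. That 0.30 is the value of CDKN2A, which was not called and whose change depended on single libraries. CCND2 and CDKN2B had at most 1 count in any library, at or below the floor of 3 counts, so no fold change is given for them. With 2 libraries a group, the smallest two-sided p an exact permutation test allows is 0.333, so each call rests on the variance that edgeR shares across genes.

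**Figure D1:**
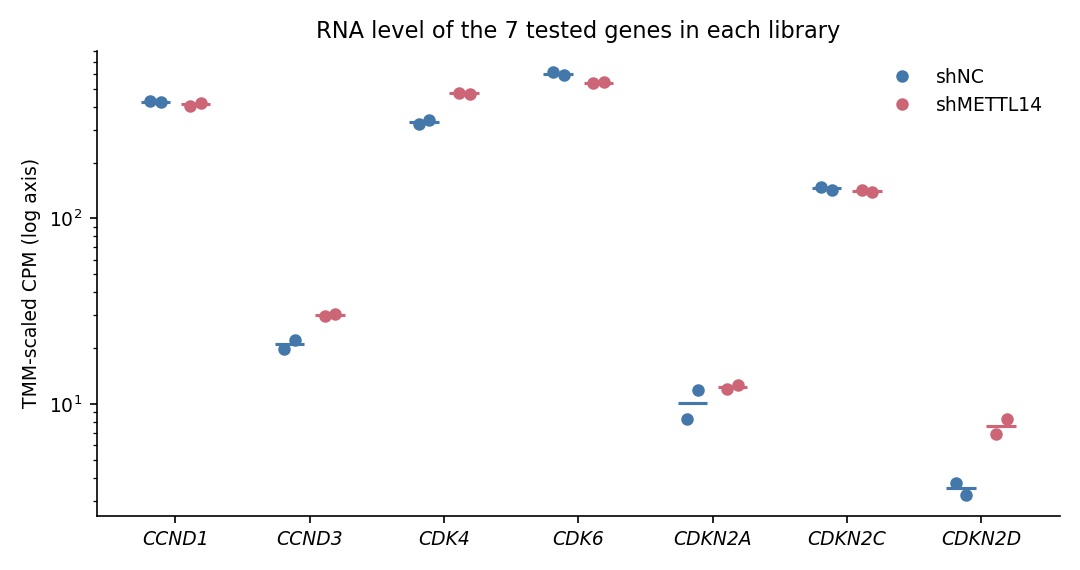
RNA level of the 7 tested genes in TMM-scaled CPM, on a log axis, with 1 point per library and a line at each group mean. CDK4, CCND3 and CDKN2D sit higher in both shMETTL14 libraries, CDK6 sits lower, and the shNC libraries of CDKN2A lie apart at 8.33 and 11.9 CPM.

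The RNA of the D-type cyclins came mostly from CCND1. CCND1 (ENSG00000110092, chromosome 11, 69641087 to 69654474, GENCODE 29 on GRCh38), which encodes cyclin D1, had 8563 and 8123 counts in the shNC libraries and 7905 and 8120 in the shMETTL14 libraries. In scaled terms these were 430 and 424 CPM against 404 and 422 CPM. The shMETTL14 libraries lay just below the shNC libraries, by an amount close to the gap between the shMETTL14 libraries themselves. On the log2 scale the difference was -0.049 (SE 0.0388), which edgeR did not call (adjusted p 0.31). The lower cyclin D1 that the study reported was thus not matched by a called fall of CCND1 RNA in the main fit. With upper quartile scaling CCND1 was called lower, at -0.12 (adjusted p 0.016), and with library size alone, at -0.094 (adjusted p 0.046). Those scalings moved the median of all tested genes by -0.068 and -0.045. In the annotation, 10.3% of the CCND1 exon bases overlap LTO1 on the opposite strand, a gene that was not called (0.066, adjusted p 0.54).

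CCND3 (ENSG00000112576, chromosome 6, 41934933 to 42050357), which encodes cyclin D3, had 393 and 424 counts in shNC and 583 and 587 in shMETTL14. Both shMETTL14 libraries, at 29.8 and 30.5 CPM, were above both shNC libraries, at 19.7 and 22.1 CPM. The level reached 144% of the control, with a log2 fold change of 0.53 (SE 0.0847, edgeR adjusted p 1.9e-05). A larger fold change was found in 11.1% of tested genes. CCND2 (ENSG00000118971, chromosome 12, 4273772 to 4305350), which encodes cyclin D2, was close to silent, with 0 and 0 counts in shNC and 0 and 1 in shMETTL14. In the annotation, 13.8% of the CCND2 exon bases overlap ENSG00000285901 on the same strand, so reads there may have been dropped. Per kilobase of merged exons, CCND1 stood at 88.4 ± 0.793 CPM per kb in shNC and 85.5 ± 2.66 in shMETTL14, and CCND3 at 3.61 ± 0.296 and 5.19 ± 0.0883 (SD, n = 2 each). On that scale CCND1 made up 96.3% and 95.8% of the D-type cyclin RNA in the shNC libraries and 94.2% and 94.3% in the shMETTL14 libraries. Despite its rise, CCND3 therefore remained a minor part of the D-type cyclin RNA. Its size depended on the length used: in shMETTL14 it was 5.73% per merged exon length and 11.6% per longest transcript.

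CDK4 and CDK6 moved in opposite directions. CDK4 (ENSG00000135446, chromosome 12, 57747727 to 57756013) had 6430 and 6484 counts in shNC and 9369 and 9001 in shMETTL14. Its levels of 323 and 339 CPM rose to 478 and 468 CPM, a change of 0.52 on the log2 scale (SE 0.0395, edgeR adjusted p 3.9e-10) and 143% of the control. Of the 9 genes, CDK4 had the smallest adjusted p. CDK6 (ENSG00000105810, chromosome 7, 92604921 to 92836594) had 12319 and 11311 counts in shNC and 10503 and 10528 in shMETTL14. Its levels of 618 and 591 CPM fell to 536 and 547 CPM, a log2 fold change of -0.16 (SE 0.0381, edgeR adjusted p 0.0014). The CDK6 change was small, at 89.6% of the control, and 36.9% of tested genes had a lower log2 fold change.

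The balance between both kinases shifted accordingly. Per kilobase of merged exons, the ratio of CDK4 to CDK6 was 2.02 and 2.22 in the shNC libraries and 3.45 and 3.31 in the shMETTL14 libraries, without overlap between the groups. CDK4 thus made up 67.9 ± 1.44% of the kinase RNA in shNC and 77.2 ± 0.529% in shMETTL14 (SD, n = 2 each). Which kinase was more abundant depended on the length used. Per coding length the ratio was 0.589 ± 0.039 in shNC and 0.94 ± 0.0282 in shMETTL14, so that CDK6 led in both groups, but the rise remained. In the annotation, 43.2% of the merged exon bases of CDK4 overlap those of TSPAN31, a tetraspanin gene on the opposite strand. The strand setting of the counting is not given in the sources used here, so reads there may have been dropped or credited to either gene. TSPAN31 went the other way from CDK4, with 369 and 362 counts in shNC and 251 and 257 in shMETTL14, or -0.52 on the log2 scale (SE 0.0983, edgeR adjusted p 1.4e-04).

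**Figure D2:**
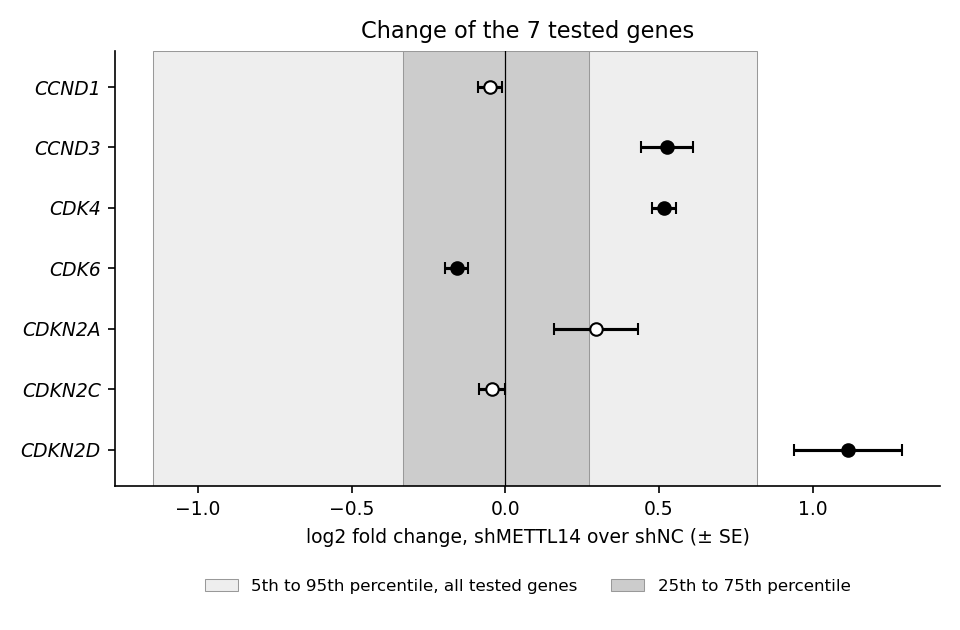
Log2 fold change of the 7 tested genes, shMETTL14 over shNC, with standard errors; filled points passed an edgeR adjusted p under 0.05. The bands give the 25th to 75th percentile (-0.33 to 0.27) and the 5th to 95th percentile (-1.15 to 0.82) over all 16309 tested genes, and CDKN2D at 1.12 lies beyond the wider band.

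Because CDK4 rose and CDK6 fell, the start regions of these kinase genes and of CDKN2D, the gene with the largest change, are shown side by side. Each line gives the 250 bases before the RefSeq start on GRCh38.p14, 5′ to 3′ on the gene's own strand, which is the minus strand for all of them. Capitals mark the letters CACGTG, the E-box that MYCN and its partner MAX are known to bind. The windows are chr12:57752311-57752560 for CDK4, chr7:92836574-92836823 for the upstream CDK6 start and chr19:10568980-10569229 for CDKN2D.
CDK4: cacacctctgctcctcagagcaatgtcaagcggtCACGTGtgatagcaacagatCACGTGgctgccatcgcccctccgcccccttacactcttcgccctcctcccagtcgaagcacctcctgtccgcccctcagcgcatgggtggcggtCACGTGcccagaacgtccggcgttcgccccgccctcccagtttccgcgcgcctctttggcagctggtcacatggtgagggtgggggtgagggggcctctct
CDK6: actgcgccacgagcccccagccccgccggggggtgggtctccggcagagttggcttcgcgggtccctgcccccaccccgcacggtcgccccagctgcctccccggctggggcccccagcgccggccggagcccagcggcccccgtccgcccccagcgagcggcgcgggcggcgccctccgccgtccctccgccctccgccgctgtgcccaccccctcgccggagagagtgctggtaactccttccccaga
CDKN2D: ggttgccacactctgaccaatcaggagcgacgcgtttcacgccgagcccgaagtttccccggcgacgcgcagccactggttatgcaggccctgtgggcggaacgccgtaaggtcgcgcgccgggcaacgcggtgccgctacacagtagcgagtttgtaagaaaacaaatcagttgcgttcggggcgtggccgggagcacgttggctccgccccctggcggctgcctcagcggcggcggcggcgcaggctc

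The CDK4 window held 3 copies of CACGTG, which begin 216, 196 and 101 bases before the start, whereas the other windows shown held none. Among all 35116 RefSeq promoter windows of that length, 6.34% held the E-box at least once and 0.0797% held 3 or more copies. RefSeq windows were matched for 7 of the 9 genes, 13 windows in all, but not for CCND1 or CCND2, whose start regions were not searched. Outside CDK4, only CDKN2C had an E-box, in 2 of its 3 windows. CDKN2C was not called. MYCN, read from an amplified locus, had 52554 and 49710 counts in shNC and 61727 and 61457 in shMETTL14, a log2 fold change of 0.28 (SE 0.0334, edgeR adjusted p 3.8e-07). Its part in the CDK4 change was not tested. The E2F motif was searched on both strands as TTTCCCGC, TTTCGCGC, TTTGCCGC and TTTGGCGC. These words were in none of the 13 windows and in 2.79% of all windows. The GC box GGGCGG, searched in the same way, was in 9 of the 13 windows and in 42.6% of all windows. A GC box can overlap an E2F word read on the opposite strand, and in the CDK4 window no GC box overlapped an E-box. A match is a description of letters, not of binding.

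The INK4 genes ranged from silent to strongly expressed. CDKN2D (ENSG00000129355, chromosome 19, 10566462 to 10569059), which encodes p19INK4d, had 75 and 62 counts in shNC and 135 and 160 in shMETTL14. Both shMETTL14 libraries, at 6.89 and 8.31 CPM, were above both shNC libraries, at 3.76 and 3.24 CPM. The level was 217% of the control, with a log2 fold change of 1.12 (SE 0.1765, edgeR adjusted p 1.5e-05), and only 2.4% of tested genes had a higher one. CDKN2D had the largest change of the 7 genes and the lowest counts, which shows in its wide standard error.

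CDKN2C (ENSG00000123080, chromosome 1, 50960745 to 50974633), which encodes p18INK4c, was the abundant INK4 gene, with 2951 and 2737 counts in shNC and 2803 and 2681 in shMETTL14. The groups overlapped, at 148 and 143 CPM against 143 and 139 CPM. The difference of -0.043 on the log2 scale (SE 0.0434) was not called (edgeR adjusted p 0.43), and it was called lower only under upper quartile scaling, at -0.11 (adjusted p 0.037).

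CDKN2A (ENSG00000147889, chromosome 9, 21967753 to 21995301) encodes p16INK4a and, from another first exon and reading frame, p14ARF, which binds MDM2. Counts per gene cannot tell these transcripts apart. It had 166 and 227 counts in shNC and 235 and 245 in shMETTL14, so shNC library 1 stood below the other libraries. The difference of 0.30 on the log2 scale (SE 0.1374) was not called by edgeR (adjusted p 0.076; 0.027 with replicate numbers as a block). That value depended on single libraries. It was 0.056 (adjusted p 0.77) without shNC library 1, 0.57 (adjusted p 0.0024) without shNC library 2 and 0.34 (adjusted p 0.048) without shMETTL14 library 1. CDKN2B (ENSG00000147883, chromosome 9, 22002903 to 22009363), which encodes p15INK4b and lies next to CDKN2A, had 0 and 0 counts in shNC and 1 and 1 in shMETTL14.

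Around the silent CDKN2B, some genes of the INK4 locus had reads and others did not. MTAP, the neighbouring gene of methionine salvage, had 1678 and 1695 counts in shNC and 2058 and 1910 in shMETTL14, with a log2 fold change of 0.24 (SE 0.0492, edgeR adjusted p 2.6e-04). CDKN2B-AS1, the long noncoding RNA that runs antisense through the locus, had 22 and 24 counts in shNC and 20 and 15 in shMETTL14. It was not called, at -0.38 (SE 0.3877, adjusted p 0.43). DMRTA1, the next protein-coding gene beyond CDKN2B, had 0 and 1 counts in shNC and 0 and 0 in shMETTL14. No window of 100 bases from CDKN2A or CDKN2B transcripts occurred in a transcript of another gene, so these paralogs share no stretch of that length. CDKN2B-AS1 exons overlap 7.88% of the CDKN2A exon bases.

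Per kilobase of merged exons, the order in shNC was CDK4 (104 ± 3.57 CPM per kb), CCND1 (88.4), CDK6 (49.3 ± 1.58), CDKN2C (43.8 ± 1.09), CCND3 (3.61), then CDKN2A and CDKN2D (2.33 each). CDKN2A and CDKN2D did not differ there beyond their spread. In shMETTL14, CDK4 stood at 149 ± 2.41, CDK6 at 44.2 ± 0.612, CDKN2C at 42.6 ± 0.821, CDKN2D at 5.06 ± 0.667 and CDKN2A at 2.86 ± 0.119 CPM per kb (SD, n = 2). On this scale the CCND3 libraries of shMETTL14 lay within the range of those of CDKN2D. Both of these near ties depended on the length used. Per kilobase of the longest transcript, CDKN2A stood at 7.87 ± 1.94 and CDKN2D at 2.46 ± 0.261 CPM per kb in shNC, and in shMETTL14 CCND3 stood at 12.6 ± 0.214 and CDKN2D at 5.35 ± 0.705. Per coding length CDKN2A again led CDKN2D in shNC (20.1 ± 4.98 against 7.03 ± 0.746), and CCND3 led CDKN2D in shMETTL14 (34.4 ± 0.585 against 15.3 ± 2.01). The top of the order changed too, since CDK6 (618 ± 19.8) led CCND1 (482 ± 4.33) and CDK4 (364 ± 12.5) per coding length in shNC. Per longest transcript, CDKN2C overlapped CDK6 in shNC and passed it in shMETTL14 (48.6 ± 0.938 against 46.7 ± 0.646). Within the INK4 class, per merged exon length, CDKN2C made up 91% and 89.8% of the RNA in shNC and 85.4% and 83.2% in shMETTL14, while CDKN2D went from 5.1% and 4.49% to 9.08% and 11%. Per coding length the CDKN2D share was smaller, at 2.38% and 2.07% in shNC and 4.3% and 5.24% in shMETTL14.

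Relative to the kinases, summed inhibitor and cyclin RNA both stood lower after knockdown. Among the largest terms, CDK4 rose from 104 to 149 CPM per kb of merged exons, while CCND1 went from 88.4 to 85.5 and CDKN2C from 43.8 to 42.6. CCND3 rose and CDK6 fell. In the INK4 class, CDKN2D rose from 2.33 to 5.06 and CDKN2A went from 2.33 to 2.86, together more than CDKN2C fell. Summed INK4 RNA per merged exon length was thus not lower in shMETTL14. The lower INK4 ratio came with a larger kinase sum. The lower cyclin ratio need not mean less cyclin RNA. Per merged exon length, the ratio of summed INK4 RNA to summed CDK4 and CDK6 RNA was 0.322 and 0.309 in shNC and 0.259 and 0.263 in shMETTL14. For summed D-type cyclins, the ratio to the kinases was 0.607 and 0.591 in shNC and 0.455 and 0.482 in shMETTL14. Neither ratio overlapped between the groups, and both kept their direction with the longest transcript or the coding length. The size of the difference depended on the length: for INK4 it was -0.0548 per merged exon length and -0.0236 per coding length, and for D-type cyclins -0.13 and -0.0495. CDK4 supplies most of the kinase sum per merged exon length, so these ratios carry its uncertainty over TSPAN31.

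**Figure D3:**
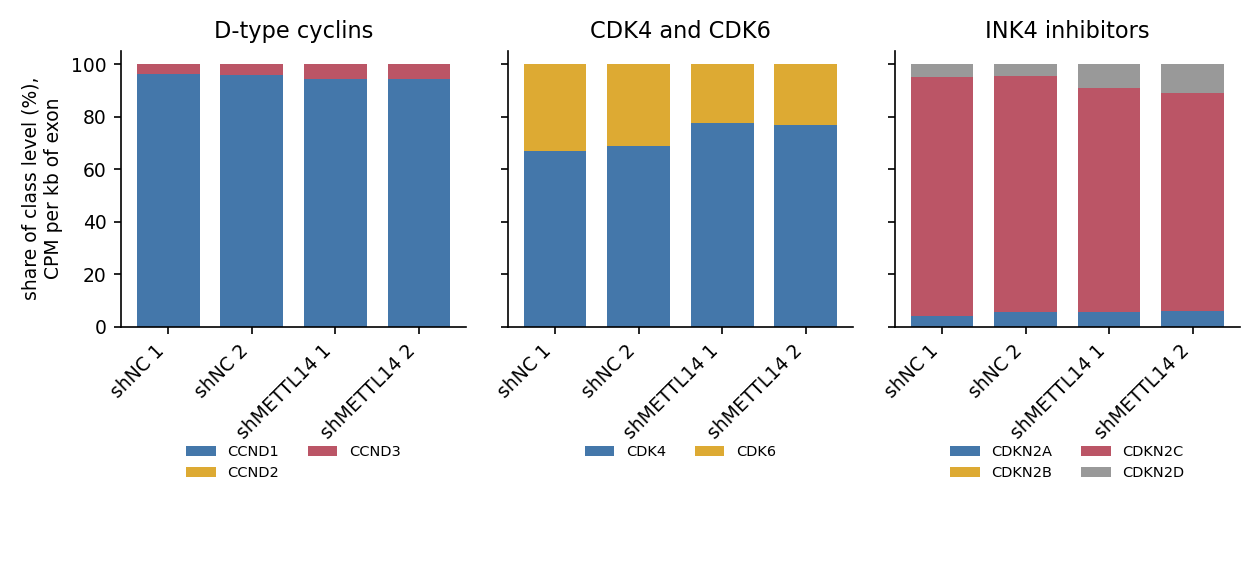
Share of each gene in the RNA of its class per library, as a percentage of the summed CPM per kilobase of merged exons. CCND1 holds 94.2% to 96.3% of the D-type cyclins, CDK4 grows from 66.9% and 68.9% to 77.5% and 76.8% of the kinases, and CDKN2D grows within the INK4 inhibitors.

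Genes that act with the cyclin D module were then examined as lists written from general knowledge, with earlier results of these data known. Of 13 pocket protein and E2F/DP genes, all were tested, 8 rose, 2 fell and 3 were not called, with a median log2 fold change of 0.28. The share called was 76.9%, against 52.5% of all tested genes. E2F1, an activator of S phase genes, had 1022 and 906 counts in shNC and 1578 and 1642 in shMETTL14, a rise of 0.75 on the log2 scale (SE 0.057, edgeR adjusted p 3.6e-10). TFDP1, which encodes the E2F partner DP1, rose by 0.43, and E2F7, a repressive E2F, rose by 0.53. RB1, the main substrate of CDK4 and CDK6, was not called, with 1179 and 1112 counts in shNC and 1134 and 1087 in shMETTL14. RBL2, which encodes the pocket protein p130 of resting cells, had a log2 fold change of -0.64 (SE 0.0494, edgeR adjusted p 5.0e-10), though 18.2% of its exon bases overlap other genes. RBL1, which encodes p107, had one of -0.21 (adjusted p 0.017), and its call was lost with DESeq2, without shNC library 1 (-0.20, adjusted p 0.063) and without shMETTL14 library 1 (-0.15, adjusted p 0.22).

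Of 22 E2F target genes of G1/S, 19 rose, 1 fell and 2 were not called, with a median log2 fold change of 0.23. The share called was 90.9%, against 52.5% of all tested genes, of which 27.2% were called higher and 25.3% lower. The smallest adjusted p values belonged to PCNA, the sliding clamp of DNA polymerase (0.71), CCNE2 (1.20) and CCNE1 (1.46), which encode the E-type cyclins that act after cyclin D. The CCNE1 rise is in RNA, whereas the study reported less cyclin E1 after knockdown. CCNE2 shares 37.1% of its exon bases with other genes. POLA1, a DNA polymerase subunit, had a log2 fold change of -0.18 (adjusted p 0.0047) and was not called without shMETTL14 library 2 (-0.12, adjusted p 0.15). Over the 4 scalings tried, 15 to 19 of the 22 genes passed the test upwards and 1 or 2 downwards.

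All 3 CIP/KIP inhibitors fell, where 25.3% of all tested genes were called lower. CDKN1C, which encodes p57KIP2, had 238 and 226 counts in shNC and 74 and 69 in shMETTL14, a log2 fold change of -1.69 (SE 0.1462, edgeR adjusted p 2.9e-09). CDKN1A, which encodes p21CIP1, had 119 and 85 counts in shNC and 55 and 56 in shMETTL14, or -0.87 on the log2 scale (SE 0.208, adjusted p 0.0014). CDKN1B, which encodes p27KIP1 and was the abundant member, had 3245 and 3129 counts in shNC and 2893 and 2849 in shMETTL14. Its change was small, at -0.14 (SE 0.0417, adjusted p 0.007), and was not called without shMETTL14 library 1 (-0.14, adjusted p 0.06) or library 2 (-0.13, adjusted p 0.066). Under each of the 4 scalings all 3 were called lower.

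**Figure D4:**
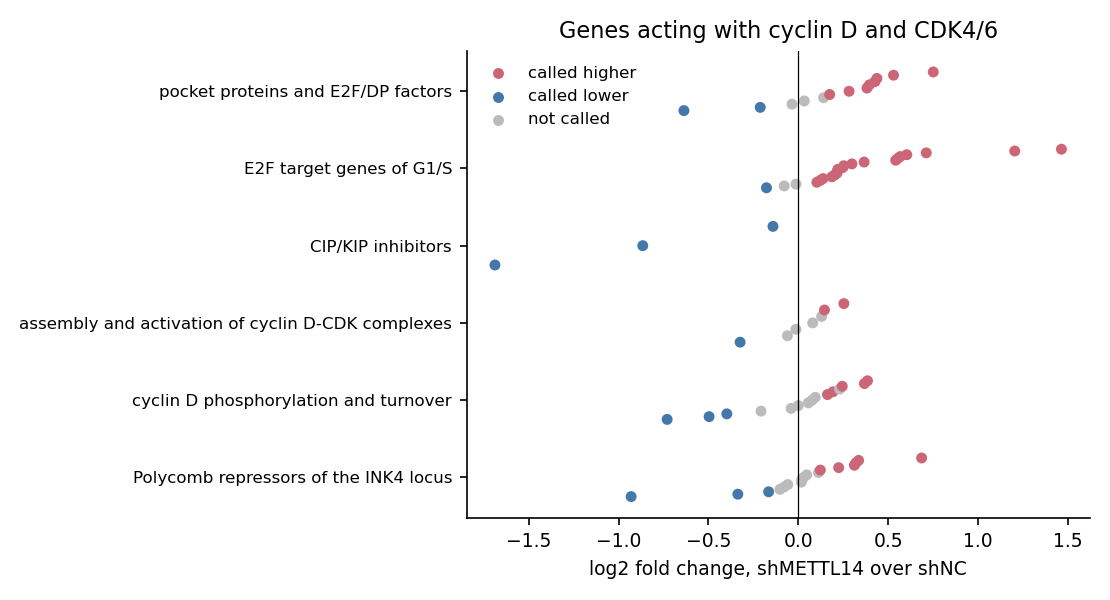
Log2 fold change, shMETTL14 over shNC, of each tested gene in the 6 lists around the cyclin D module, with 1 point per gene. E2F targets lie mostly to the right of 0 (19 of 22 called higher) and all 3 CIP/KIP inhibitors to the left. Of all tested genes, 27.2% were called higher and 25.3% lower.

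The lists on assembly and turnover of cyclin D showed changes in both directions. Of 7 genes for assembly and activation of the complexes, HSP90AA1 (0.25) and CDC37 (0.15), chaperones of CDK4, rose and MNAT1 (-0.32), a subunit of the kinase that activates CDKs, fell. The 42.9% called in this list was below the 52.5% of all tested genes. The call of CDC37 was lost under upper quartile scaling (0.078, adjusted p 0.12), and that of MNAT1 without shMETTL14 library 2 (-0.21, adjusted p 0.11). Of 16 genes for phosphorylation and turnover of D-type cyclins, 15 were tested, 5 rose and 3 fell, and the 53.3% called was close to the 52.5% of all tested genes. SKP1, a scaffold of SCF ubiquitin ligases (0.38), GSK3B, a kinase that marks cyclin D1 for export and decay (0.24), and CUL4A (0.19) had the smallest adjusted p values among those that rose. CUL4B (-0.73, SE 0.0491, edgeR adjusted p 5.2e-11), FBXW8 (-0.50) and CUL7 (-0.40), all parts of cullin ubiquitin ligases, fell. Upper quartile scaling turned the split to 4 higher and 5 lower in the turnover list and to 1 higher and 2 lower in the assembly list. AMBRA1, the receptor that brings D-type cyclins to a cullin ligase, was not called, with 635 and 568 counts in shNC and 543 and 651 in shMETTL14.

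Among 17 Polycomb genes, whose complexes are known to silence the CDKN2A and CDKN2B locus, 6 rose, 3 fell and 8 were not called. The 52.9% called was close to the 52.5% over all tested genes. BMI1 had 449 and 431 counts in shNC and 712 and 694 in shMETTL14 (log2 fold change 0.69, SE 0.0771, edgeR adjusted p 1.5e-07), and 23.3% of its exon bases overlap a readthrough gene. PHC2 (0.31) and CBX2 (0.32) rose, and EZH1 (-0.34) fell. CBX7 (-0.93, edgeR adjusted p 0.0063) and PHC1 (-0.17, edgeR adjusted p 0.047) also fell. Other genes overlap 21.6% of the CBX7 exon bases and 18.1% of those of PHC1. The call of CBX7 was lost with DESeq2 (adjusted p 0.052) and without shMETTL14 library 2 (-0.70). PHC1 lost its call with DESeq2 (adjusted p 0.19), with no filter beyond 1 count, without shNC library 2 (-0.12) and without either shMETTL14 library. DESeq2 called 4 of the list higher and 1 lower. The list median, 0.030, changed sign under upper quartile scaling (-0.038) and with library size alone (-0.015).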

How the data were processed

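Paired-end RNA libraries of SK-N-BE(2) cells were sequenced on a NovaSeq. The values used are the raw counts of reads for each Ensembl gene, which the authors deposited unnormalized in a single table. The submitters' processing notes name HISAT2 2.1.0, StringTie 1.3.6, HTSeq 0.13.5, edgeR and the build GRCh38, with no role or order; the strand setting and the annotation release are not given in the sources used here. Lines for reads given to no gene, 19.1% to 19.9% of each library, were left out. They include the ambiguous reads, which made up 5.01% to 5.32% of each library.

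Genes passing filterByExpr (minimum count 10, minimum total 15) were tested with the edgeR 4.0.16 quasi-likelihood F-test in R 4.3.3, with TMM scaling and group only as the design. P-values were adjusted by Benjamini-Hochberg over all genes tested, and calls used an adjusted p under 0.05. Standard errors came from the F statistic. The procedure was tested on simulated data. Alternatives were DESeq2 1.42.0, other scalings and filters, a replicate block and leaving out each library. CPM per kilobase used GENCODE 29 merged exon lengths, with the longest transcript and the coding length as alternatives.

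The genes, lists and naming rule (all members, METTL14, MYCN, neighbours and overlapping genes, each list's 3 called genes with the smallest adjusted p per direction, and the 3 genes most like each of the 3 members with the smallest adjusted p) were chosen with earlier results of these data known. RB1, AMBRA1, LUM, COL1A2, EPCAM, KRT19 and KRT5 were named after their values were seen. Of 78 list genes, 19 share at least 10% of their exon bases with other genes. Errors cover the spread between libraries, of which each group has 2. A further list of genes was tested and is not reported here.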

Additional observations from a re-analysis of the deposited data

How the results depend on the processing

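CCND3, CDK4 and CDKN2D were called higher, CDK6 and METTL14 lower, under all 11 alternatives, with log2 fold changes from 0.44 to 0.62, from 0.45 to 0.56, from 0.98 to 1.25 and, for CDK6, from -0.23 to -0.13. Upper quartile scaling called CCND1 (-0.12) and CDKN2C (-0.11) lower, and library size alone called CCND1 (-0.094). Under upper quartile scaling 41.7% of all called genes were higher (3550 higher, 4961 lower), where TMM gave 51.8%. CDKN2A ranged from 0.056 to 0.57 when 1 library was left out, in fits where the lone library of a group is assumed to vary like the other group. For libraries with equal replicate numbers, the departures from each group's mean level correlated at 0.0048 across genes. With so few libraries, that value cannot show whether an equal number meant a shared culture or batch. With the replicate block CDKN2A was called, at 0.30 (adjusted p 0.027), and 8926 genes were called in place of 8561. DESeq2 called 5 Polycomb genes rather than 9, and the cause was not tested.

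With the longest transcript or the coding length in place of merged exons, the CCND1 share of D-type cyclin RNA was 91.9% or 95.3% in shNC and 88.4% or 93.1% in shMETTL14. The INK4 to kinase ratio went from 0.286 in shNC to 0.232 in shMETTL14 with the longest transcript, and from 0.322 to 0.298 with the coding length. CCND2 and CDKN2B were at the floor in every library, so no alternative gave them a fold change that could be read. Genes with few counts, such as CDKN2D and CDKN2A, had the widest errors.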

Other observations

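The chromosomal neighbours of the cyclin D, CDK4/6 and INK4 genes changed in both directions. Genes that overlap a member, such as TSPAN31 and LTO1, were not counted as neighbours. Of the 16 nearest non-overlapping protein-coding neighbours outside the set, 12 were tested, 3 rose and 5 fell. Of all tested genes, 27.2% were called higher and 25.3% lower. TIGAR, a fructose bisphosphatase gene 2413 bases from the all but silent CCND2, had 23 and 26 counts in shNC and 92 and 71 in shMETTL14 (log2 fold change 1.74, SE 0.2661, edgeR adjusted p 1.0e-05). PARP11, on the other side of CCND2, had 80 and 84 counts in shNC and 46 and 28 in shMETTL14 and fell (-1.14, SE 0.2528, edgeR adjusted p 6.7e-04). BYSL, a ribosome assembly gene 1887 bases from CCND3, rose by 0.57 (SE 0.0625, adjusted p 9.9e-08), while TAF8 on the other side of CCND3 fell (-0.31, adjusted p 0.0029). Beside CDK4, AGAP2, at 129 and 128 counts in shNC and 73 and 75 in shMETTL14, fell (-0.79, SE 0.1711, edgeR adjusted p 5.5e-04), and CYP27B1 was not called. Beside CDKN2C, FAF1 fell (-0.23, adjusted p 9.3e-04). Beside CDKN2D, KRI1 fell (-0.25, adjusted p 0.0024), and AP1M2 was at or below 3 counts.

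Across the 4 libraries, the genes whose log2 CPM followed CDK4 most closely by Pearson correlation were FBXW5, CDC6 and SSU72. Those nearest to CDKN2D were USP39, SH3PXD2B and JOSD1, and those nearest to CCND3 were COLEC11, HDAC1 and NME4. With only 4 points in 2 groups such likeness is weak as a description, since 9.08% of the 11624 genes compared reached a correlation of at least 0.99 with CDK4, 4.28% with CDKN2D and 5.62% with CCND3.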
